A study of Mus musculus with 14 samples.

Results

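The autophagy and lysosome genes described here are 61 of the 55422 entries of a mouse brainstem count table. They were taken by symbol: every gene whose name starts with Atg and a digit or with Atp6v, plus Ulk1, Ulk2, Becn1, Sqstm1, Map1lc3a, Map1lc3b, Gabarap, Gabarapl1, Gabarapl2, Optn, Tax1bp1, Nbr1, Wipi1, Wipi2, Tfeb, Lamp1, Lamp2, Ctsb, Ctsd and Ctsl, without 3 named pseudogenes. The rule itself uses no measured value, though it was made with earlier results of these data known. RNA came from 7 mice of the genotype TH-Cre;Slc6a2-eGFP/Rpl10a, in which Th regulatory sequence drives Cre and Slc6a2 (noradrenaline transporter) sequence drives a tagged ribosomal protein. At 2 to 3 months of age the locus coeruleus, the main noradrenergic nucleus of the brainstem, of 4 animals (B, C, L, M) received P364S mutant human tau, and that of the other 3 (H, I, K) received EYFP, a yellow fluorescent control protein. Tagged ribosomes were immunoprecipitated with their RNA. Each animal gave this immunoprecipitate (IP) and a total brainstem homogenate (pre-IP), which makes 4 libraries each of tau pre-IP and tau IP and 3 each of EYFP pre-IP and EYFP IP. All 4 groups carried both transgenes and all had surgery, and no animal without an infusion was analysed here. The study asked how tau changes locus coeruleus RNA, and RNA of glial marker genes was present in every IP library as well.

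Autophagy wraps cytoplasm in a double membrane and delivers it to the lysosome. Nutrient and energy signals reach the Ulk kinase complex, a phosphatidylinositol 3-kinase complex around Becn1 marks the membrane, Atg9 and Atg2 proteins supply lipid, and ubiquitin-like conjugation enzymes attach Atg8-family proteins that bind cargo receptors. The lysosome is acidified by the V-ATPase, a rotary proton pump with a cytosolic V1 sector that hydrolyses ATP and a membrane V0 sector that conducts protons. Neurons rely on this pathway to clear aggregated proteins, tau among them, and Tfeb is a transcription factor that activates lysosomal and autophagy genes through CACGTG-type sequence elements.

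Promoters of 5 members are shown because they hold that element: Atp6v1a and Atp6v0b were higher in IP than in pre-IP, Lamp1 was the most variable member, and Atg3 and Ctsd passed in none of the 4 comparisons. No member that was lower in IP is among them. Each run is the 140 bases before the start annotated by RefSeq, read 5′ to 3′ on the gene's strand (GRCm38.p6), with CACGTG in capitals, or TCACGTGA where the flanking bases also match. The runs lie at chr16:44139260-44139399 (minus strand) for Atp6v1a, chr4:117887330-117887469 (minus) for Atp6v0b, chr16:45158689-45158828 (plus) for Atg3, chr8:13159021-13159160 (plus) for Lamp1 and chr7:142387828-142387967 (minus) for Ctsd. These starts lie 446 (Atp6v1a), 4 (Atp6v0b), 44 (Atg3), 0 (Lamp1) and 211 (Ctsd) bases inside the outer end of the gene in the deposited annotation.
Atp6v1a: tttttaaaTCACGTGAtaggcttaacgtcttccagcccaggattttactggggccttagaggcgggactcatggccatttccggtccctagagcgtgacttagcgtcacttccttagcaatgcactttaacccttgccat
Atp6v0b: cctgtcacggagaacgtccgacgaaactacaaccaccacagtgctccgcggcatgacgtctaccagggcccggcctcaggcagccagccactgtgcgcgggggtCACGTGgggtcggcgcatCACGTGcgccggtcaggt
Atg3: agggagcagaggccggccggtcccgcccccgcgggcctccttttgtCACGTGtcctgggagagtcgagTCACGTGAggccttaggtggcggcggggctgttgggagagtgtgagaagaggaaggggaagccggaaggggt
Lamp1: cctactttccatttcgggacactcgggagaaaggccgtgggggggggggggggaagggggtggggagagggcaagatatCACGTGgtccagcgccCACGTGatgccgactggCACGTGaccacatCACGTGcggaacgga
Ctsd: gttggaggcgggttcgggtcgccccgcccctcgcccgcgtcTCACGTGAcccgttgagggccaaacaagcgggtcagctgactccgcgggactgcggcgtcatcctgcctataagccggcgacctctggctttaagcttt
Lamp1 holds 4 copies of CACGTG, which begin 61, 45, 28 and 15 bases before its start, and Atp6v0b and Atg3 hold 2 each. RefSeq windows from 250 bases before to 50 after a start were found for 49 of the 61 members. CACGTG, which is its own reverse complement and so was read on both strands at once, occurred in the windows of 11 of these 49 genes (22.4%), against 8.09% of all 27025 genes with a window. For 3 of the 11 the window lies at a start well inside the deposited gene, at 2215 bases for Atg14, 13165 for Atp6v0e and 27999 for Atg7. The longer TCACGTGA, which contains CACGTG, occurred in 5 members (Atg3, Atp6v0d1, Atp6v0e, Atp6v1a and Ctsd; 10.2%), against 1.12% of all genes. A match describes these letters only and was not set against binding.

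Total counts ran from 41843489 to 65664551 per library, and 3 counts, the floor used here, corresponded to 0.0457 to 0.0717 CPM, which is the count divided by the library's total and multiplied by 1e6. The RNA integrity number ran from 4.2 (EYFP IP of animal I) to 9. Human tau construct counts were 3527 to 47177 in the tau libraries and 2 to 18 in the EYFP libraries of H and I, but 398 and 408 in those of animal K. Animal M is labelled female, and its Y-linked counts went against that label. The 12 noradrenergic marker genes summed to 1065 to 7211 CPM in tau IP, 564 to 636 in EYFP IP, 415.7 to 477.6 in EYFP pre-IP and 422.5 to 446.3 in tau pre-IP, so the IP held more of them in each treatment and the tau IP libraries stood above the EYFP IP libraries. Fewer cells of a type and less RNA per cell cannot be told apart in such bulk samples.

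Levels between genes were compared as CPM per kilobase of the deposited gene length. Of the 5 Atg8-family members, which coat the autophagosome membrane, Map1lc3a at 868 ± 211 and Gabarapl1 at 724 ± 83.2 CPM per kb led all members (mean ± SD, n = 14 libraries), while Gabarap (252), Gabarapl2 (186) and Map1lc3b (130) stood lower. That order depends on the deposited lengths, 7517 bases for Map1lc3b against 1181 for Map1lc3a and 1844 for Gabarap. Without division by length, Map1lc3b had 756 to 1187 CPM and Gabarap 363 to 778. Next came the V-ATPase subunits Atp6v1g2 (498 ± 45.0), Atp6v1f (486 ± 141) and Atp6v0e2 (456 ± 78.2), which did not differ beyond their spread. The highest cargo receptor was Sqstm1 (p62) at 237 ± 29.4, and the highest cathepsin, a lysosomal protease, was Ctsb at 179 ± 28.9. Upstream genes were far lower per length: Becn1, the scaffold of the lipid kinase complex, stood at 21.1 ± 3.71, Ulk1 at 9.08 ± 2.34, Ulk2 at 5.81 ± 1.84 and Tfeb at 6.29 ± 1.58. The pump isoforms Atp6v0a4, Atp6v0d2, Atp6v1b1, Atp6v1e2 and Atp6v1g3, and Atg5lrt, had 0 to 22 counts in every library. Reads without strand information cannot separate overlapping genes: exons of Becn1 share 3104 bases (43.9% of its length) with Cntd1, which reached 0.434 CPM, and those of Sqstm1 share 580 bases with Mrnip, which reached 20.8 CPM. Some partners stood above the member. Exons of Atg2b share 383 bases with Gskip (up to 150.5 CPM), and those of Atp6v1c2 share 50 with Pdia6 (up to 173.6 CPM). Ctsb shares 774 bases with Fdft1, which reached 304.9 CPM. The part of partner reads in the members' values was not tested. Atp6v0c has a near-identical pseudogene, Atp6v0c-ps2, with 251 to 556 counts.

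Comparison of IP with pre-IP shows which pathway genes the IP libraries held more or less of than the homogenates did. How much of the IP RNA came from tagged ribosomes was not tested. RNA concentrations were 0.1 to 2.8 ng per µl in IP and 11.4 to 29.9 in pre-IP, and the part of input was not tested. The peripheral V1 sector of the proton pump stood on the higher side: 6 of its 10 tested members were higher in IP and 0 were lower, led by the catalytic subunit Atp6v1a (log2 fold change 0.71, SE 0.14). Of the 4 lipid scaffolds 3 were lower, the scramblase Atg9a (-1.14, SE 0.11) and the lipid-transfer proteins Atg2a (-1.10) and Atg2b (-0.85), and Atg9b gave 0.26 (SE 0.18) without passing. The phosphoinositide-binding Wipi2 was lower as well (-0.68). In all, 22 of the 55 members tested passed the threshold (edgeR quasi-likelihood test over all 14 libraries, Benjamini-Hochberg adjusted p under 0.05), 13 higher and 9 lower. Over all 19472 genes tested, 29.9% passed, 15.6% higher and 14.2% lower. The members' share, 22 of 55, was not tested against that of other genes. The median log2 change was 0.06 over the members and -0.0036 over all genes tested. All 12 noradrenergic markers were higher in IP (median log2 change 2.33), 3 of 11 microglial, 3 of 9 astrocyte and 2 of 9 oligodendrocyte markers were lower, and 1 astrocyte and 2 oligodendrocyte markers were higher. The noradrenergic rise was far larger in tau animals, with sums of 1065 to 7211 CPM in tau IP and 564 to 636 in EYFP IP. The homogenates had 422.5 to 446.3 (tau) and 415.7 to 477.6 CPM (EYFP). The part of these cell types in the members' changes was not tested.

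**Figure D1:**
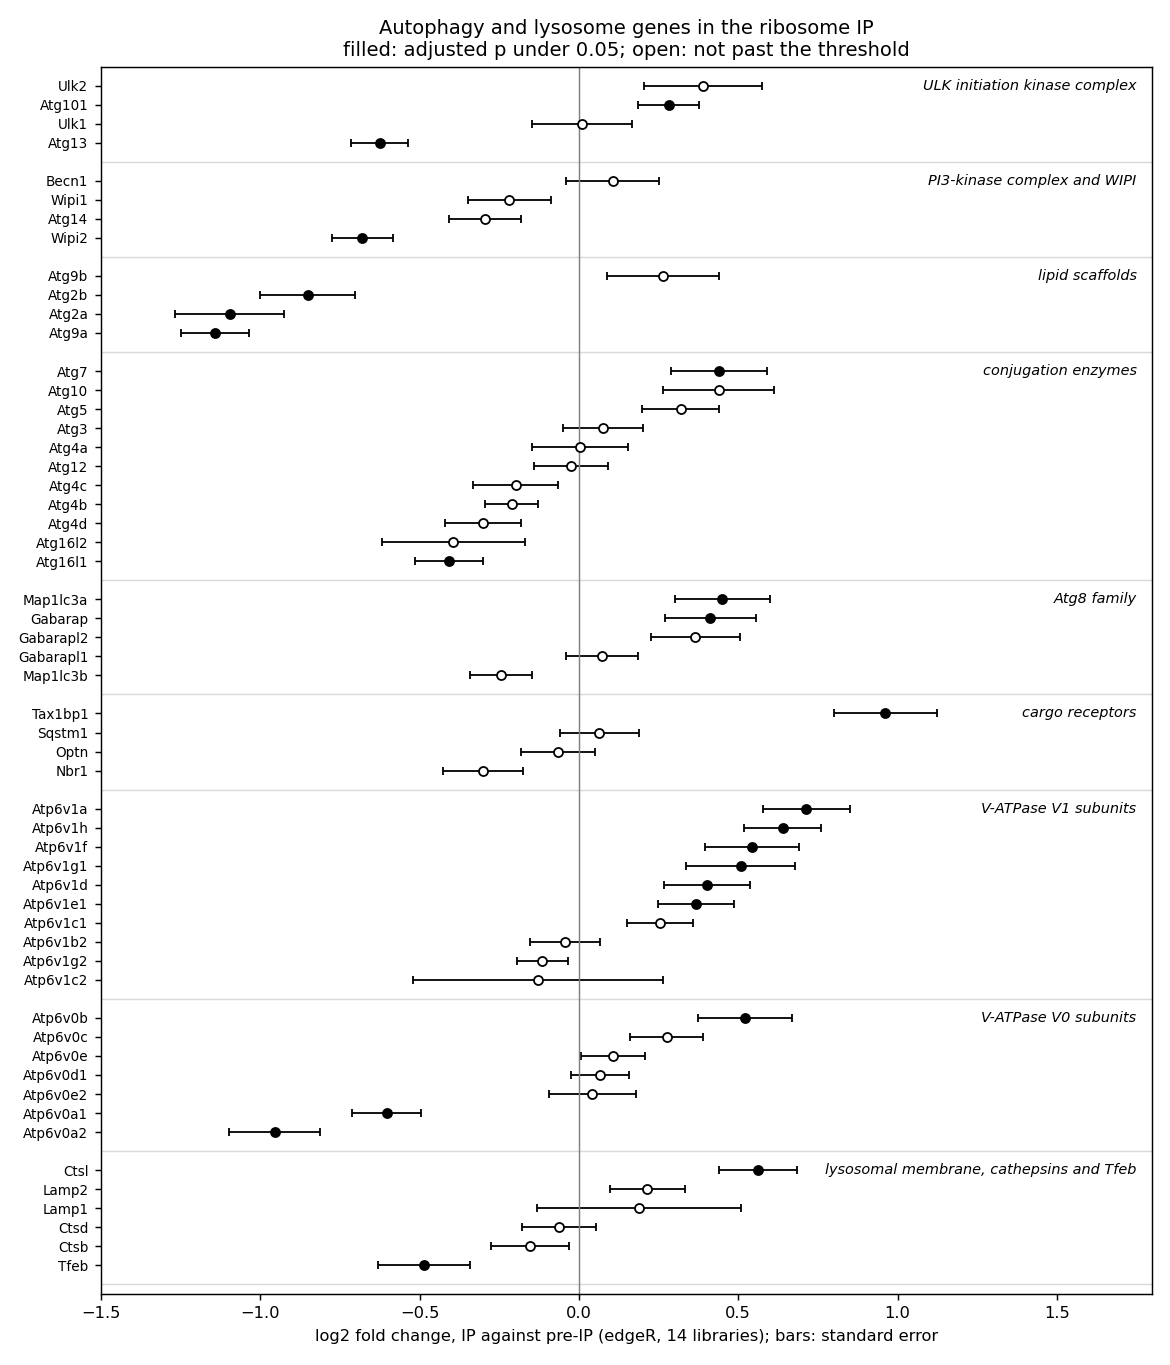
Log2 fold change of each tested member between IP and pre-IP over 14 libraries (x axis), grouped by role (y axis), with bars of 1 standard error and filled points past an adjusted p of 0.05. The V1 subunits lie mostly right of 0, up to 0.71 for Atp6v1a, and of the lipid scaffolds Atg2a, Atg2b and Atg9a lie left of it, down to -1.14, and Atg9b right of it.

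Atg9a lies at chr1:75180860-75192196 (minus strand). Its level was 91.5, 84.6 and 106 CPM in EYFP pre-IP (H, I, K) and 76.3, 80.6, 94.9 and 108 in tau pre-IP (B, C, L, M), against 51.9, 43.5 and 45.2 in EYFP IP and 31.6, 36.7, 38.8 and 37.4 in tau IP. Every IP library was below every pre-IP library, and the adjusted p was 2.02e-05 (edgeR). Atp6v0a2, an isoform of the large a subunit on the proton path (chr5:124628576-124724455, plus), had 84.2, 69.8 and 79.1 CPM in EYFP pre-IP and 56.5, 67.5, 77.4 and 83.4 in tau pre-IP, against 52.8, 35.1 and 47.9 in EYFP IP and 19.7, 32.8, 35.5 and 40.8 in tau IP. The fractions did not overlap, and B gave the lowest value (log2 change -0.96, SE 0.14, edgeR adjusted p 0.000206). Wipi2 (chr5:142627698-142670588, plus) had 299, 253 and 242 CPM in EYFP pre-IP and 222, 241, 284 and 263 in tau pre-IP, and fell to 204, 148 and 151 in EYFP IP and 139, 142, 169 and 140 in tau IP. Its highest IP library, that of H, was still below its lowest homogenate, that of B (edgeR adjusted p 0.000135).

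On the higher side the fractions did not overlap for 2 called members. Atp6v1h (chr1:5070018-5162529, plus), the subunit that couples V1 to V0, had 115, 137 and 162 CPM in EYFP pre-IP and 159, 170, 129 and 163 in tau pre-IP, against 188, 260 and 247 in EYFP IP and 233, 209, 215 and 208 in tau IP. Every IP library was above every homogenate, in both treatments (log2 change 0.64, SE 0.12, edgeR adjusted p 0.00116). Ctsl (chr13:64359337-64370890, minus), a cysteine protease of the lysosome, had 88.4, 88.9 and 117 CPM in EYFP pre-IP and 125, 97.1, 86.1 and 106 in tau pre-IP, against 133, 152 and 157 in EYFP IP and 161, 133, 133 and 141 in tau IP. Its IP libraries again stood apart from the homogenates (0.56, SE 0.12, edgeR adjusted p 0.00271). Members whose fractions did not overlap numbered 2 higher and 6 lower of 55, where 3.57% and 5.58% of all genes tested did so. The 6 lower were Atg9a, Atp6v0a2, Atp6v0a1, Wipi2, Atg13 and Atg14.

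**Figure D2:**
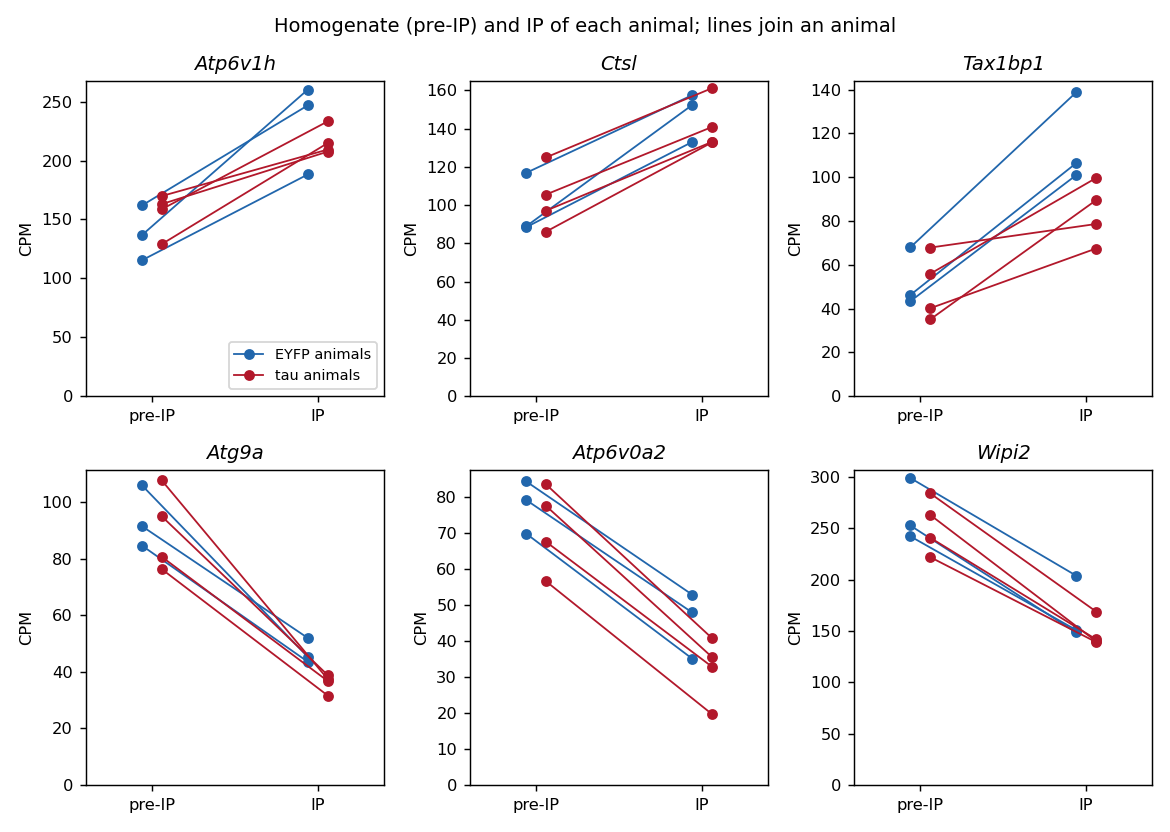
CPM (y axis, from 0) of 6 members in the homogenate and the IP (x axis) of each of 7 animals, blue for EYFP and red for tau, with a line joining the libraries of an animal. All lines rise for Atp6v1h, Ctsl and Tax1bp1, and all fall for Atg9a, Atp6v0a2 and Wipi2.

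By role, the initiation complex was mixed: its adaptor Atg13 was lower (-0.63, SE 0.09) in 7 of 7 animals, Atg101, which stabilises Atg13, was higher (0.28, SE 0.10) in 6 of 7, and the kinases gave 0.01 (Ulk1) and 0.39 (Ulk2, SE 0.18) without passing. Of the 4 lipid-kinase and WIPI genes only Wipi2 passed, and Becn1 gave 0.11 (SE 0.15). Among 11 conjugation enzymes, the E1-like Atg7 was higher (0.44, SE 0.15, adjusted p 0.0366) and Atg16l1, which anchors the Atg12 and Atg5 conjugate to the membrane, was lower (-0.41, SE 0.11). The E2-like Atg3 gave 0.07. Of 5 Atg8-family genes, Map1lc3a (0.45, SE 0.15) and Gabarap (0.41, SE 0.14) were higher, each in 6 of 7 animals, and Map1lc3b gave -0.24 (SE 0.10, adjusted p 0.0712). Tax1bp1, a ubiquitin-binding receptor (chr6:52713729-52766780, plus), had the largest rise of any member tested, 0.96 (SE 0.16, adjusted p 0.000473), in 7 of 7 animals, while Sqstm1 gave 0.06.

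The V-ATPase sectors differed in which subunits passed. In V1, Atp6v1h, Atp6v1d (0.40) and Atp6v1e1 (0.37) were higher in 7 of 7 animals, as was Atp6v1a, and Atp6v1f (0.54) and Atp6v1g1 (0.51) in 6 of 7. The neuronal isoform Atp6v1g2 gave -0.11 (SE 0.08). In V0, the proteolipid-ring subunit Atp6v0b was higher (0.52, SE 0.15) and both tested large a-subunit isoforms, Atp6v0a1 (-0.60, SE 0.11) and Atp6v0a2, were lower in 7 of 7 animals. Atp6v0e2 gave 0.04 (SE 0.14). In the lysosomal group Ctsl was higher and Tfeb was lower (-0.49, SE 0.14, adjusted p 0.0181, 7 of 7 animals). Ctsb (-0.15), Ctsd (-0.06) and Lamp1, a lysosomal membrane glycoprotein (0.19, SE 0.32), did not pass.

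With the animal as a block, 22 members again passed, 11 higher and 11 lower, 20 of them shared with the fit above, where 28.2% of all genes passed (13.4% higher and 14.9% lower). Atg101 (adjusted p 0.0635) and Atg7 (0.0637) lost their calls, and Map1lc3b (0.0236) and the protease gene Atg4d (0.0393) gained one, both lower. In tau animals alone 22 of 56 passed (all genes: 20.7%, 10.4% higher and 10.3% lower), 13 higher and 9 lower, and in EYFP animals alone 9 of 55 (all genes: 6.38%, 3.96% higher and 2.41% lower), namely Atp6v1a, Atp6v1h and Tax1bp1 higher and Atg13, Atg2a, Atg2b, Atg9a, Atp6v0a2 and Wipi2 lower. The V1 subunits that passed were not the same in the treatments. Atp6v1a did not pass in tau animals (0.50, edgeR adjusted p 0.0759). In EYFP animals Atp6v1f gave 0.19 and Atp6v1g1 0.04 without passing, against 0.78 and 0.82 in tau animals. Atp6v1e1 passed in tau animals (0.42, adjusted p 0.047) and not in EYFP animals (0.27, adjusted p 0.455). Atp6v1d passed in neither (0.45, adjusted p 0.0898 in tau animals and 0.30, adjusted p 0.369 in EYFP animals). Atg7 was 0.78 (SE 0.15) in tau animals and -0.05 (SE 0.17) in EYFP animals, and these differences between treatments are the interaction given below. The count fell to 13 without animal C (all genes: 21.4%) and to 14 without L (21.7%). It fell to 12 without I, K and M together (13.3%), a setting chosen after seeing the data that leaves H as the only EYFP animal.

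Other pathway genes were listed by function and not by how they moved. Of 41 further autophagy genes 20 were lower and 5 higher in IP (median log2 change -0.29), and of 53 further lysosomal genes 13 were lower and 3 higher (median -0.15), where 14.2% of all genes were lower and 15.6% higher. These shares were not tested against those of other genes. Mtor (-0.95, SE 0.18), the kinase of the growth signal that restrains autophagy, and Tsc2 (-1.27, SE 0.14), which inhibits that signal, were among the lower genes. The Tfeb relative Tfe3 (-0.71, SE 0.10) was lower too. Rb1cc1, the large scaffold of the Ulk complex, was higher (1.28, SE 0.23), as was Atp6ap2, an accessory protein of the pump (0.72, SE 0.14). Longer genes tended to the lower side: across genes, which are not independent replicates, Spearman's rho between log2 change and gene length was -0.15 over 19321 genes and -0.39 over the 55 members. With GC percent, rho was -0.35 over 19027 genes and -0.25 over 54 members. Genes higher at an unadjusted p under 0.05 had a median GC of 45.4% and lower ones of 53.0%. The part of length or base composition in these changes was not tested.

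Comparison of tau IP with EYFP IP, the contrast named in the series' design, gave 0 of 56 tested members past an adjusted p of 0.05 (edgeR, 7 IP libraries), and 0.0% of all 19472 genes passed. At an unadjusted p under 0.05 there were 18 members, 15 higher and 3 lower in tau IP, where 7.93% of all genes were higher and 4.06% lower. The total of 18 fell with any 1 animal left out. It was 8 without I, whose EYFP IP library had an RNA integrity number of 4.2, 11 without H or without K, and at most 15 (without M). The shares of all genes in those fits are not given here. The 15 higher members include 4 of 5 Atg8-family genes, 4 of 11 conjugation enzymes, 4 V0 and 2 V1 subunits and Becn1. Of the V0 genes 1, Atp6v0a4, is included in the 15 and the 18 but had at most 22 counts in any library. It entered the test only through tau IP, so its place in these counts is no support for a difference. Groups did not overlap for 10 members higher and 8 lower in tau IP, against 6.36% and 9.22% of all genes. The 10 include Atp6v1c2, which had only 4 to 45 counts in the IP libraries. The median log2 difference was 0.01 over the members and -0.08 over all genes tested. DESeq2 called 7 members, all higher in tau IP (Atg7, Gabarap, Atp6v1g1, Atp6v0e2, Atp6v1f, Gabarapl2 and Atp6v0b), with adjusted p from 0.00190 to 0.0485, where it called 2.11% of all genes (2.0% higher). It gave no adjusted p for a number of low genes, Tfeb, Atg2a and Wipi1 among them, and these were counted as not called. The 2.11% is thus lower than the share among genes that DESeq2 could call, which was not computed. A single edgeR fit of all 14 libraries called Atg7, Gabarap and Atp6v1g1 (all genes: 0.986%, 0.859% higher), limma voom called 0 (all genes: 0.0%), and without I, K and M together the edgeR fit called 0 members and 0.0% of all genes. That last fit holds 1 EYFP IP library, H, which is assumed to vary like the tau IP libraries.

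Atg7, which starts both conjugation chains (chr6:114643097-114860614, plus), had 50.1, 38.6 and 35.2 CPM in EYFP IP (H, I, K) and 62.0, 57.5, 76.4 and 77.0 in tau IP (B, C, L, M), and 36.2 to 46.9 in all 7 homogenates. The tau IP libraries all lay above the EYFP IP libraries, and L and M were highest (log2 difference 0.83, SE 0.18, unadjusted p 0.00092, edgeR adjusted p 0.318). Gabarap (chr11:69991143-69994951, plus), an Atg8-family protein, had 396, 376 and 418 CPM in EYFP IP and 778, 646, 558 and 519 in tau IP. The groups did not overlap, B was highest, and the log2 difference was 0.78 (SE 0.20, edgeR adjusted p 0.318). Atp6v1g1 (chr4:63544772-63550750, plus), a stalk subunit of the pump, had 203, 265 and 250 CPM in EYFP IP and 560, 408, 367 and 319 in tau IP. Again the tau IP libraries were all higher, with the same order among them as Gabarap (0.91, SE 0.24, edgeR adjusted p 0.318).

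On the lower side, the cargo receptor Nbr1 (chr11:101552149-101581951, plus) had 73.8, 69.6 and 75.4 CPM in EYFP IP and 32.3, 49.0, 57.0 and 48.0 in tau IP. No tau IP library reached the EYFP IP range, and B was lowest (-0.55, SE 0.17, edgeR adjusted p 0.318). Atp6v1a had 345, 407 and 358 CPM in EYFP IP and 246, 313, 273 and 242 in tau IP, and 135 to 247 in the homogenates. The tau IP libraries thus lay between the EYFP IP libraries and most homogenates (-0.36, SE 0.14, edgeR adjusted p 0.381). Atp6v0a1 had 249, 247 and 248 CPM in EYFP IP, a range of under 2 CPM, and 158, 206, 186 and 200 in tau IP, with no overlap (-0.30, SE 0.13, edgeR adjusted p 0.400). The members that passed no test at any level include Sqstm1 (0.16, SE 0.16), Ulk1 (-0.27, SE 0.20), Ulk2 (-0.06, SE 0.26), Tfeb (-0.32, SE 0.21), Lamp1 (-0.11, SE 0.49), Ctsb (-0.10), Ctsd (-0.07), Ctsl (0.06) and Map1lc3b (0.07).

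**Figure D3:**
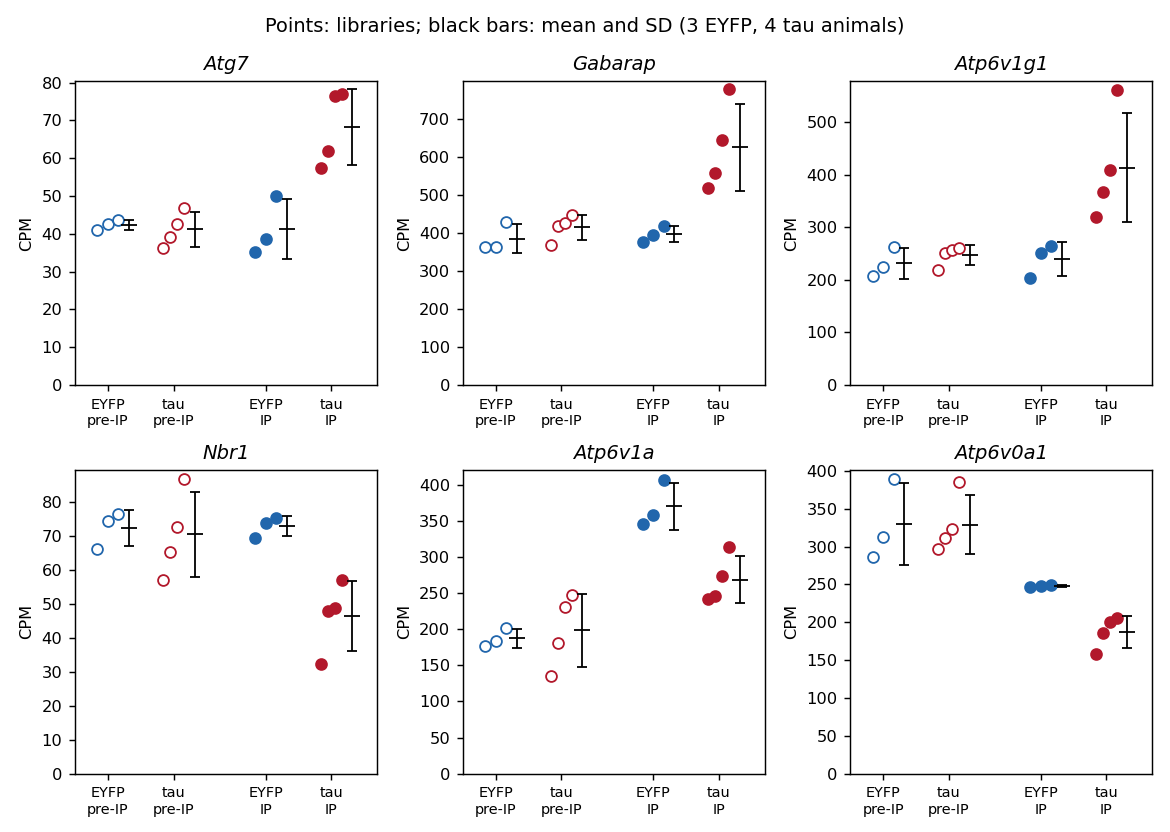
CPM (y axis, from 0) of 6 members in the 4 groups (x axis), one point per library, open for pre-IP and filled for IP, with black bars for mean and SD. Atg7, Gabarap and Atp6v1g1 stand higher in tau IP than in EYFP IP, and Nbr1, Atp6v1a and Atp6v0a1 stand lower, while the homogenates of both treatments overlap for each gene.

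The noradrenergic sum within tau IP was 7211 CPM in B, 4136 in C, 3564 in L and 1065 in M. There were 8 tested members with that same order of the 4 libraries, namely Atp6v0b, Atp6v0c, Atp6v0e2, Atp6v1f, Atp6v1g1, Becn1, Gabarap and Gabarapl2. They were 14.3% of the 56 members, where 8.52% of all genes had it. The opposite order was found for 6 members (10.7%, all genes 13.2%), namely Atg13, Atg4d, Atp6v0a2, Ctsb, Ulk1 and Wipi1. Atg7 had neither order. Markers of other cell types were summed as well. The 7 markers of other neurons gave 322.6 to 575.5 CPM in tau IP against 772.2 to 808.7 in EYFP IP, with no overlap, and 4 of the 7 were lower at an unadjusted p under 0.05. Ranges overlapped for the glial lists, through the tau IP library of M alone. In tau IP against EYFP IP the 11 microglial markers summed to 176 to 376 against 330.3 to 399.8 CPM. The 9 astrocyte markers summed to 690.0 to 1649 against 1381 to 1843, and the 9 oligodendrocyte markers to 3810 to 10612 against 9077 to 13453. By gene, all 11 microglial and all 9 astrocyte markers were lower in tau IP, 4 of each at an unadjusted p under 0.05 (edgeR). Of the oligodendrocyte markers 8 were lower, 1 at that level, and 1 was higher. All 12 noradrenergic markers were higher at that level (median log2 difference 2.81). No marker of these lists was at 0 in any library. The part of cell makeup in the members' differences was not tested.

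Gene length moved with the same contrast. Members higher in tau IP at an unadjusted p under 0.05 had a median length of 2325 bases, the 3 lower ones 6556, and all 56 members 4506. Across genes, Spearman's rho between the log2 difference and length was -0.56 over the 56 members and -0.29 over 19316 genes. Atg7, higher in tau IP, is longer than the median, at 6968 bases. RNA concentrations were 0.1 to 0.8 ng per µl in tau IP and 0.7 to 2.8 in EYFP IP, and the part of length or input in the differences was not tested.

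**Figure D4:**
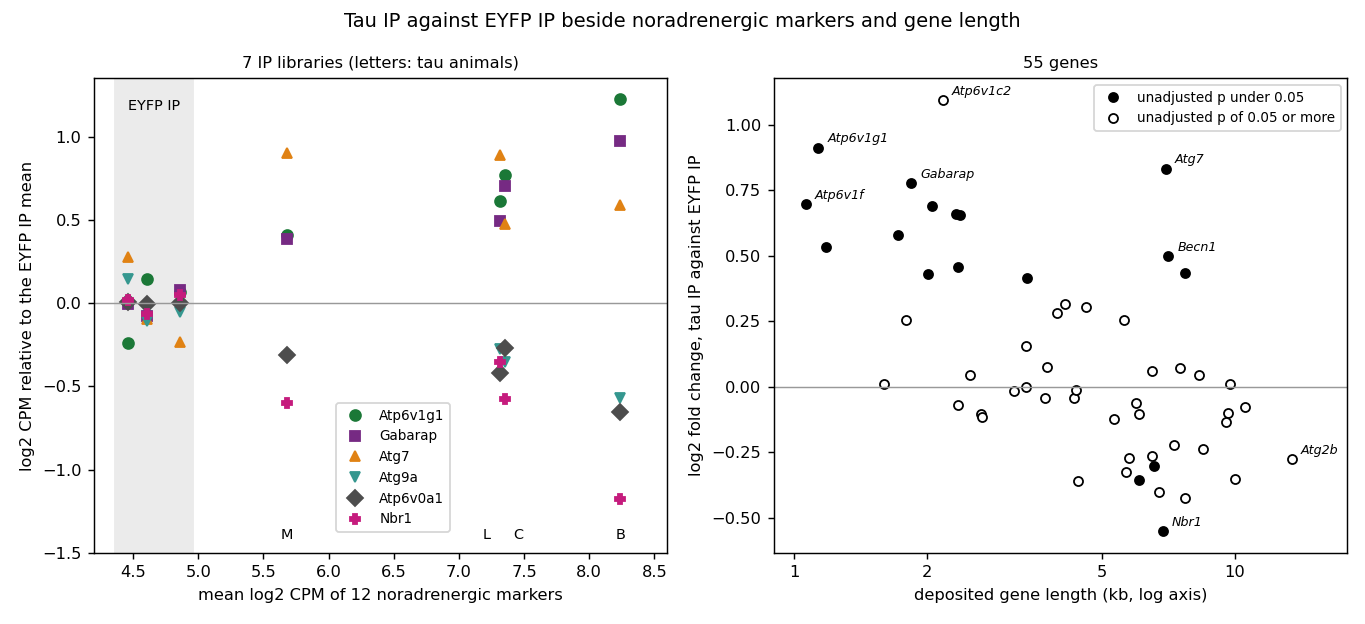
Left, log2 CPM of 6 members relative to their EYFP IP mean (y axis) against the mean log2 CPM of 12 noradrenergic markers (x axis) in 7 IP libraries, with EYFP IP shaded and tau animals lettered. Right, log2 fold change between tau IP and EYFP IP (y axis) against gene length on a log axis (x axis) for 55 members, filled at an unadjusted p under 0.05, without Atp6v0a4, which is near the floor. Gabarap and Atp6v1g1 are highest in B and lowest of the tau IP libraries in M, which Atg7 is not, and the short members lie mostly above 0.

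In the total homogenate, tau pre-IP against EYFP pre-IP gave 0 of 55 tested members past the threshold, and 0.0% of all 19197 genes passed (edgeR, smallest adjusted p among members 0.9998). At an unadjusted p under 0.05 there were 2 members, both lower, where 2.26% of all genes were lower and 0.578% higher. DESeq2 and limma voom also called 0 members and 0.0% of all genes. Ulk2, an initiation kinase, had 46.9, 36.5 and 41.2 CPM in EYFP pre-IP (H, I, K) and 19.8, 30.4, 26.7 and 17.2 in tau pre-IP (B, C, L, M). The groups did not overlap (log2 difference -0.80, SE 0.18, unadjusted p 0.000928). Lamp1 had 284, 272 and 502 CPM in EYFP pre-IP and 122, 217, 302 and 171 in tau pre-IP. The groups overlapped through L, and K was far above the others (-0.79, SE 0.29, unadjusted p 0.0195). In the IP the groups overlapped for both genes. Ulk2 had 28.2, 55.5 and 38.5 CPM in EYFP IP and 27.8, 28.8, 44.6 and 44.3 in tau IP, and Lamp1 had 162, 364 and 405 in EYFP IP and 148, 105, 369 and 463 in tau IP.

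Among the settings run, both genes passed only where no filter on low counts was applied (edgeR adjusted p 0.00985 for Ulk2 and 0.0202 for Lamp1), where 0.065% of all genes were called lower. Over all alternatives the adjusted p ran from 0.00985 to 1.00 for Ulk2 and from 0.0202 to 1.00 for Lamp1. Ulk1, the partner isoform, had 65.5, 52.7 and 93.2 CPM in EYFP pre-IP and 40.5, 52.1, 67.9 and 44.3 in tau pre-IP. Its groups overlapped (-0.45, SE 0.22, unadjusted p 0.0635). Toward the higher side the smallest p-values belonged to Atg101 (0.19, SE 0.13), Sqstm1 (0.20, SE 0.18) and Atp6v1h (0.18, SE 0.16). Atg101 had 65.6, 78.6 and 77.5 CPM in EYFP pre-IP and 94.7, 81.8, 77.8 and 80.6 in tau pre-IP. Sqstm1 had 583, 673 and 932 CPM in EYFP pre-IP and 832, 832, 756 and 920 in tau pre-IP, and the Atp6v1h values are given above. In each of the 3 the groups overlapped. Map1lc3a (-0.06), Map1lc3b (0.06), Becn1 (-0.13), Tfeb (0.09), Ctsb (0.06), Ctsd (0.08) and Ctsl (0.09) lay within 1 SE of 0, as did Gabarap (0.12, SE 0.13). The median log2 difference was 0.01 over the members and -0.00048 over all genes tested.

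**Figure D5:**
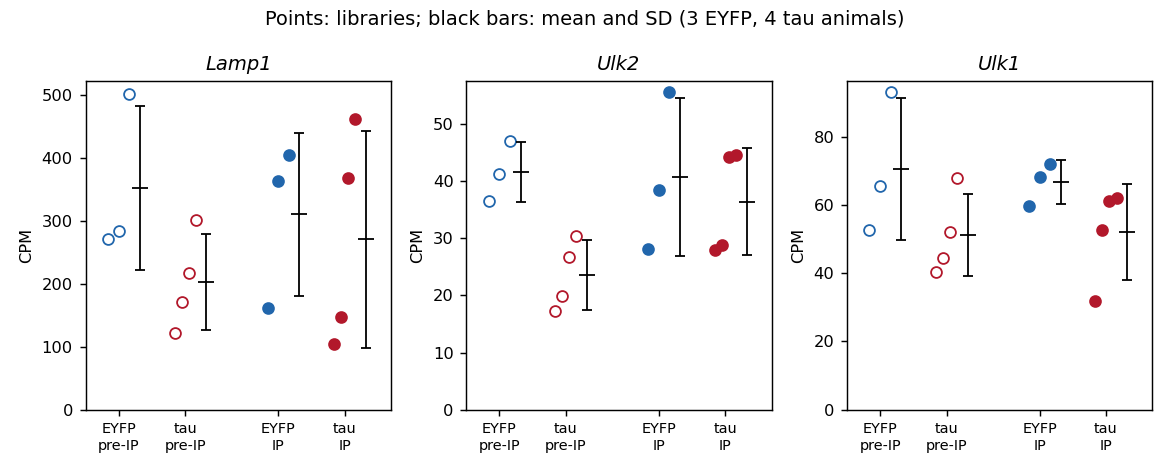
CPM (y axis, from 0) of Lamp1, Ulk2 and Ulk1 in the 4 groups (x axis), one point per library, with black bars for mean and SD. Ulk2 is lower in every tau homogenate, at most 30.4 CPM, than in every EYFP homogenate, at least 36.5, and Lamp1 spreads from 105 to 502 CPM over the libraries.

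The interaction term asks whether the difference between tau and EYFP animals was itself different in the IP and in the homogenate. It called 0 of 56 members and 0.0% of all 20495 genes (edgeR, smallest adjusted p among members 0.479). At an unadjusted p under 0.05 there were 14 members, 13 (the low Atp6v0a4 among them) with a larger and 1 with a smaller IP over pre-IP ratio in tau animals, where 4.03% of all genes had a larger and 1.94% a smaller one. DESeq2 called 0 members and 0.254% of all genes, and limma voom and the fit with the animal as a block called 0 members and 0.0% of all genes. Atg7 came first (0.86, SE 0.22, unadjusted p 0.00128): the log2 ratio of IP to pre-IP was 0.78, 0.55, 0.84 and 0.71 in B, C, L and M and 0.24, -0.09 and -0.32 in H, I and K. Every tau animal lay above every EYFP animal. Atp6v1g1 (0.81, SE 0.28) had ratios of 1.12, 0.70, 0.49 and 0.54 in tau and -0.14, 0.01 and 0.28 in EYFP animals, and Gabarap (0.66, SE 0.24) had 0.80, 0.62, 0.39 and 0.49 against 0.13, -0.19 and 0.20. The ratios of the treatments did not overlap for either gene. Nbr1 was the 1 member on the other side (-0.53, SE 0.23, unadjusted p 0.0341), followed by Atp6v1a (-0.45, SE 0.25) and Tfeb (-0.41, SE 0.28), which did not reach that level. For Ulk2 and Lamp1, whose log2 differences were -0.80 and -0.79 in the homogenate and -0.06 and -0.11 in the IP, the term was 0.74 (SE 0.33, unadjusted p 0.0400) and 0.68 (SE 0.64). All 12 noradrenergic markers had a larger ratio in tau animals at an unadjusted p under 0.05 (edgeR, median term 2.71). All 11 microglial, 9 astrocyte, 9 oligodendrocyte and 7 other-neuron markers had a smaller one, 3, 2, 0 and 1 of them at that level. The part of cell makeup in the members' interaction was not tested.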

How the data were processed

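RNA sequencing values were taken from the deposited count table, in which the authors give raw counts of reads for each gene. Per the labels' protocols, columns purified the RNA and SMART-Seq v4 and Nextera XT kits made the libraries. Per the submitters' processing notes, FastQC, Trim Galore, STAR and featureCounts were used with build GRCm38 (mm10), and their versions, strandedness and treatment of reads with several matches are not given in the sources used here. Because 2 cells of the table's header line are blank, columns were read by position, and their tau construct counts equal those of the deposited sample sheet. That sheet also gives, per the file headers, the authors' RNA integrity number, concentration and percentages of reads of high quality and of GC bases, and how the percentages were computed is not stated.

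All genes kept by filterByExpr were tested with edgeR 4.0.16 (R 4.3.3; quasi-likelihood F test), with TMM scaling and Benjamini-Hochberg adjustment over all genes at 0.05. A standard error is the log2 change over the square root of F. IP was compared with pre-IP over 14 libraries with treatment as a term, tau with EYFP within each fraction, and the interaction over 14 libraries. CPM are counts per 1e6 counts of the library. Alternatives were DESeq2 1.42.0, its size factors in edgeR, limma 3.58.1 voom with quality weights, no filter or a mean of 50 counts, each animal left out, sex label or library-number range as covariate, a single fit, each treatment alone and the animal as a block. A setting without I, K and M together was added after seeing the data. The fits were tested on simulated data.

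Titles give both fractions of an animal 1 letter, so the letter pairs them. Deviations of an animal's fractions from their group means correlated in 7 of 7 animals (mean r 0.393, lowest 0.274). For tau against EYFP within a fraction, p-values measure the spread between animals. The main fits of IP against pre-IP and of the interaction had no animal term, so both libraries of an animal entered as separate units. Their p-values measure the spread between libraries, and the fit with the animal as a block is the alternative that uses the pairing. At total counts of 41843489 to 65664551, the filter on low counts left 6 members untested in IP against pre-IP, and Atp6v1c2 was tested at only 4 to 59 counts. The floor covers counting error only. The rule for members, the role groups, the lists of further genes and of markers, and the choice of named members (those past the threshold, else the 5 smallest p-values in each direction, the highest per role and 11 standard genes) were made with earlier results of these data known. Promoters were chosen after values were seen. A planned correlation of members with the noradrenergic markers over the IP libraries is not given, because the marker levels of the treatments do not overlap, and the order within tau IP stands in its place.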

Additional observations from a re-analysis of the deposited data

Results flagged for a closer look

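Single libraries that stood apart from the others of their group were looked for in 112 groups of 4 libraries (Dixon's test at 95%), and 5 values were found. Chance alone marks about 1 group in 20. Map1lc3a was 701 CPM in the tau pre-IP library of M, where the other 3 lay at 903 to 939. Wipi1 was 10.2 CPM in tau IP of B, where the others lay at 19.1 to 19.9. Wipi2 was 169 CPM in tau IP of L against 139 to 142 in the others. Atp6v0e was 92.3 CPM in tau IP of M against 62.2 to 66.8. Atg16l1 was 52.7 CPM in tau pre-IP of B against 65.4 to 66.2. The 5 values fall in 3 animals. Wipi2 and Atg16l1 were past the threshold in IP against pre-IP in 16 of 16 settings over both treatments. These include the main fit and each animal left out, but not the setting without I, K and M together. In each treatment alone Wipi2 passed, and Atg16l1 did not (edgeR adjusted p 0.0609 in tau and 0.178 in EYFP animals).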

How the results depend on the processing

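The count of members past the threshold in IP against pre-IP was 22. It was 9 in EYFP animals alone and 12 without I, K and M together, a setting added after seeing the data, and ran from 13 (without C) to 23 (without H) with each animal left out in turn. Under the other settings it stayed within 1.5 times of 22. For tau IP against EYFP IP the count of 0 became 7 with DESeq2 and 3 in the single fit of 14 libraries, and for the homogenate it became 2 with no filter on low counts. It remained 0 under every alternative run for the interaction, of which that without I, K and M together holds 1 EYFP animal. The replicate block, with the animal pairing its fractions, kept 22 calls in IP against pre-IP and 0 in the interaction, and changed no other call than the 4 named above. DESeq2 size factors moved no median over all genes by more than 0.1. Of 1579 alternative values of the named members, 1424 kept their direction and their side of the threshold, 58 were no longer past it, 15 became so and 82 changed sign. Of the values that changed sign 1 belongs to a member past the threshold, Atg7 in IP against pre-IP, which was -0.0492 in EYFP animals alone, and the others were of members not past it. The cause was not tested.

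Signs are given for the named members only, and other members crossed 0 too. The log2 change in IP against pre-IP took the opposite sign with limma voom for Becn1 (-0.0234) and Atp6v0e2 (-0.0348) and in EYFP animals alone for Becn1 (-0.25), Ulk1 (-0.0967), Ulk2 (-0.0341), Atp6v0e2 (-0.30), Ctsd (0.0232) and Lamp1 (-0.20). That of tau IP against EYFP IP did so with limma voom for Atg101 (-0.005), Ulk2 (0.0109) and Ctsl (-0.0688), with no filter for Atg101 (-0.0035), with DESeq2 size factors for Atg3 (0.0134) and with the DESeq2 test for Atg3 (0.0134). The interaction value did so with limma voom for Map1lc3b (-0.0713) and Atp6v1g2 (-0.023), with no filter for Map1lc3b (-0.011) and Atp6v1g2 (-0.022) and with the replicate block for Map1lc3b (-0.0208) and Atp6v1g2 (-0.0368). Over the fits that leave out 1 animal, the log2 change in IP against pre-IP crossed 0 for Atp6v0e2 (-0.10 to 0.11), Becn1 (-0.0491 to 0.16), Lamp1 (-0.0768 to 0.27), Sqstm1 (-0.0069 to 0.14) and Ulk1 (-0.077 to 0.13). In tau IP against EYFP IP it did so for Atg101 (-0.0606 to 0.0456), Atg3 (-0.21 to 0.0709), Atp6v1g2 (-0.0149 to 0.0758), Ctsl (-0.058 to 0.11), Lamp1 (-0.49 to 0.16), Map1lc3b (-0.0136 to 0.19) and Ulk2 (-0.30 to 0.21). In the homogenate it did so for Atg3 (-0.0141 to 0.18), Atg9a (-0.16 to 0.0908), Atp6v0e2 (-0.0042 to 0.11), Atp6v1g2 (-0.0045 to 0.11), Ctsb (-0.0748 to 0.30), Ctsd (-0.0256 to 0.30), Ctsl (-0.0214 to 0.28), Map1lc3a (-0.13 to 0.0425), Map1lc3b (-0.0127 to 0.16) and Tfeb (-0.0192 to 0.25). In the interaction it did so for Atg3 (-0.27 to 0.0114), Atp6v1g2 (-0.15 to 0.0842), Ctsb (-0.34 to 0.0205), Ctsl (-0.18 to 0.029), Map1lc3b (-0.0526 to 0.0552), Sqstm1 (-0.28 to 0.0569) and Ulk1 (-0.20 to 0.38). The filter on low counts left 6 members untested in IP against pre-IP. Counts were also low for Atp6v1c2, which was tested with 4 to 59 per library (SE 0.39), the lowest of any member tested there.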

Other observations

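Lamp1 varied between libraries of the same group more than any other member with a mean of at least 5 CPM. Its within-group SD was 0.75 on the log2 scale, at the 97.8th percentile of 11486 genes, and Atg16l2, a conjugation gene of low level, stood at the 95.5th. The steadiest member was Atp6v0d1 (0.11, at the 2.3rd percentile), a V0 subunit whose CPM ran from 320 to 415 over all 14 libraries. Lamp1 is singled out here after its values were seen. The genes whose deviations from the group means were most like its own over the 14 libraries included C1ql1 (Pearson r 0.99) and Riox1 (0.98), and the members most like it were Ulk2 (0.75) and Ulk1 (0.62). These correlations describe libraries that share animals and preparation, and no p-value is attached.

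In tau IP Lamp1 was 148, 105, 369 and 463 CPM in B, C, L and M, where Ctsd, a lysosomal aspartic protease, was 259, 261, 256 and 283 and Lamp2, the related membrane protein, was 57.9, 62.3, 70.7 and 68.7. Ctsb, at 824, 880, 1012 and 1082 CPM, was higher in L and M as Lamp1 was. In animal C it was 217 CPM in the homogenate and 105 in the IP, and in M 171 and 463. The direction of its IP over pre-IP change was positive in 4 of 7 animals.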
